A study of Mus musculus with 10 samples.

Results

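The first step of neocortical neurogenesis sampled in this series, from E12.5 to E14, was examined by comparing ribosome footprints in the 2 libraries of E14 neocortex with those in the 2 libraries of E12.5 neocortex. Ribosome profiling (Ribo-seq) counts mRNA fragments protected by ribosomes, so a gene's footprints reflect both the level of its mRNA and how many ribosomes occupy it. The comparison used 4 of the 10 libraries in the series, and a gene was included when the 2 libraries of any stage together held 32 footprints or more, which kept 13484 of 22373 genes. At the edge of this filter, 52 genes had a largest stage sum of exactly 32 and were kept, and 48 had 31 and were left out.

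All libraries came from wild-type CD-1 mice. Neocortex was dissected from the embryos of timed pregnant females at E12.5 and E14, and from embryos at E15.5 and E17 and pups at P0 for the other 6 libraries. Each library was a pool of many brains of both sexes, so a replicate is a pool of animals and its 2 values carry no information on single embryos. No treatment or genetic change separated the groups, and lysates of both stages were digested with RNase T1 and RNase A.

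At the earlier stage the neocortical wall consists mostly of dividing progenitors. Apical radial glia line the ventricle, renew themselves and give rise to neurons directly or through intermediate progenitors. The first neurons form the preplate, which holds Cajal-Retzius cells and subplate neurons, and the deep-layer neurons follow before the upper-layer neurons. The medial edge of the same vesicle forms the cortical hem and the choroid plexus, the epithelium that secretes cerebrospinal fluid, and interneurons reach the cortex by migration from the ganglionic eminences of the ventral telencephalon. Blood, vessels and meninges enter any dissection of this tissue. In bulk samples such as these, fewer cells of a type and less RNA per cell cannot be told apart.

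The E12.5 libraries held 21378041 and 33107909 counts and the E14 libraries 26598141 and 36129988. Histone genes whose symbols begin with Hist took 32.7% to 38.5% of the counts in these 4 libraries. Levels are given below as CPM, counts divided by the library size after scaling by the trimmed mean of M values (TMM) and expressed per 1000000 counts, with replicate 1 before replicate 2. Each of 12 genes of dorsal telencephalic identity had at least 78 counts in every one of the 4 libraries. Pax6, a transcription factor of cortical progenitors, measured 202 and 202 CPM at E12.5 and 176 and 167 CPM at E14. Neurod6, a factor of glutamatergic cortical neurons, measured 124 and 114 CPM against 158 and 176 CPM. Of 20 genes that mark other brain regions, 14 did not pass the filter, among them En2 and Gbx2 of the midbrain and hindbrain, and the 6 that did had a median log2 fold change of 0.27 with 0 called by limma-voom, edgeR or DESeq2 and 0 at an unadjusted p under 0.05. Among these 6, Lhx9 measured 60.8 and 60.5 CPM at E12.5 and 50.3 and 51.9 CPM at E14, and Tcf7l2 33.4 and 27.6 CPM against 29.3 and 32.7 CPM. Of the 6, 2 held 0 counts in E12.5 replicate 1, 1 in E12.5 replicate 2 and 1 in E14 replicate 2. The median of 0.27 thus includes genes at the floor. The summed level of the 6 was 96.36 and 90.95 CPM at E12.5 and 82.12 and 87.15 CPM at E14. At E15.5 it was lower, at 28.08 and 24.79 CPM.

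Between E12.5 and E14, 86 genes changed, which is 0.638% of the genes tested. The call required a Benjamini-Hochberg adjusted p under 0.05 in a limma-voom fit over all 10 libraries, and a rise of 25% or more or a fall of 20% or more. Of these genes, 67 (0.497% of the genes tested) were higher at E14 and 19 (0.141%) were lower. Of the higher genes, 15 belonged to a gene list described below, and they included 5 presynaptic and 4 choroid plexus genes. Of the lower genes, 10 belonged to a list, and they included the 3 embryonic globins and 4 S-phase genes. Without thresholds on p, both E14 libraries lay above both E12.5 libraries for 3642 genes (27.0%) and below both for 3533 genes (26.2%), and the median log2 fold change of all genes tested was -0.0015. In the same fit, 2137 of the 13484 genes tested had an unadjusted p under 0.05. Over all genes, edgeR called 85 and DESeq2 called 399. The counts for each gene list below are read against these shares and counts.

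**Figure D1:**
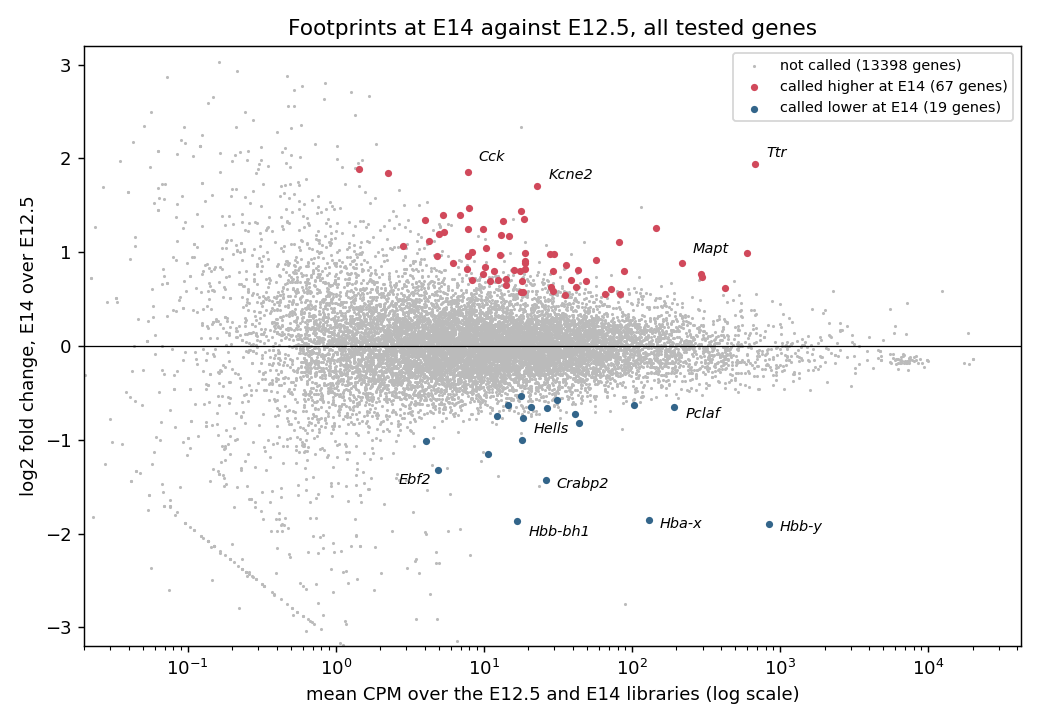
Log2 fold change of footprints at E14 over E12.5 (y axis) against the mean CPM over the 4 libraries on a log scale (x axis), 1 point per gene, with 67 genes called higher in red, 19 called lower in blue and the others in grey. Embryonic globins and Crabp2 lie lowest among the called genes and Ttr and Cck lie among the highest, and 59 genes fall outside the axes.

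The number of genes called depended on which libraries entered the fit. Without both P0 libraries, 1062 genes were called, 601 higher (4.46% of the genes tested) and 461 lower (3.42%), and all 86 genes were among them. The P0 replicates differed most in depth, at 7544404 and 35685736 counts. Leaving out P0 replicate 1 gave 1059 calls and leaving out P0 replicate 2 gave 1050. Leaving out E12.5 replicate 1 gave 1 call, and leaving out either E17 library gave 5. Leaving out E12.5 replicate 2, either E14 library or either E15.5 library gave 0 calls by limma-voom. In those 5 fits, 1253 to 1765 genes had an unadjusted p under 0.05, the edgeR quasi-likelihood test called 0 or 1 gene and DESeq2 called 79 to 206. The log2 fold changes of the 86 genes kept their sign in all 22 alternative settings tried. In each of the 86 the stages did not overlap, so leaving out 1 library could hardly change a sign. The kept signs are therefore no separate support for the calls. The p-values measure the spread between pools, at 2 per stage, and the list counts below are given both from all 10 libraries and from the 8 libraries without P0.

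**Figure D2:**
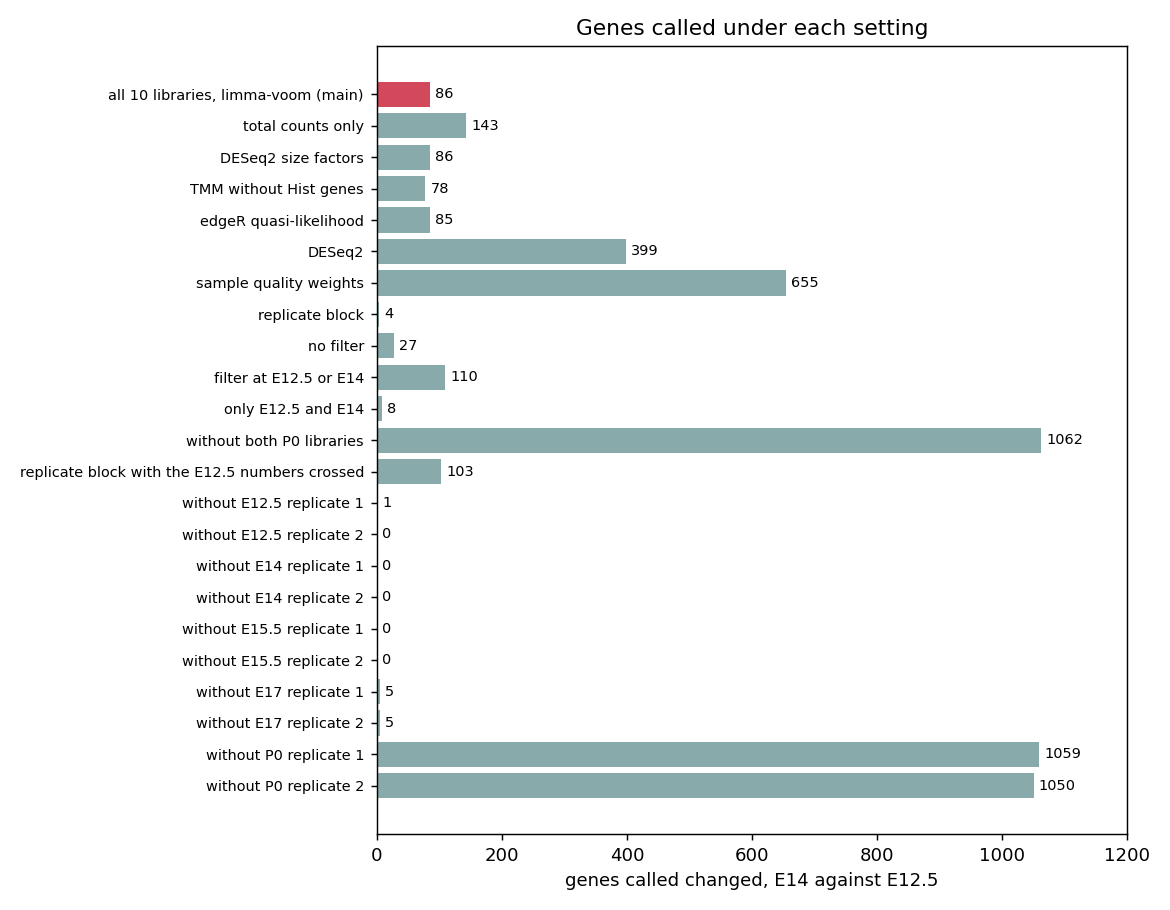
Number of genes called changed between E12.5 and E14 (x axis) in the fit over all 10 libraries (red, 86 genes) and in 22 alternative settings (y axis). Leaving out both P0 libraries gives 1062 genes, whereas the fit with only E12.5 and E14, which also holds no P0 library, gives 8. Counts with a single library left out are given in the text.

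Genes of postmitotic neurons were higher at E14. The list of pan-neuronal genes had a median log2 fold change of 0.49, and both E14 libraries lay above both E12.5 libraries for 24 of its 26 members, below for 0. By the call over all libraries 2 members rose, and without P0 18 rose and 0 fell. Mapt, which encodes the axonal microtubule protein tau, measured 153 and 151 CPM at E12.5 and 297 and 265 CPM at E14, a 1.84-fold rise (log2 fold change 0.88 ± 0.11 SE, adjusted p = 0.0264). Rbfox3, which encodes the neuronal nuclear antigen NeuN, measured 22.5 and 22.3 CPM at E12.5 and 35.4 and 33.9 CPM at E14 (0.63 ± 0.09, adjusted p = 0.0382). In both genes the replicates of a stage lay much closer to each other than to the other stage. The 3 members with the highest levels had smaller differences that were called without P0 alone. Tubb3, the neuronal beta-tubulin, measured 690 and 783 CPM at E12.5 and 1074 and 981 CPM at E14. Map2, a dendritic microtubule protein, measured 631 and 574 CPM against 761 and 758 CPM, and Dpysl3, a growth cone protein of the CRMP family, 459 and 493 CPM against 644 and 599 CPM.

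Genes of the presynaptic terminal, the site of transmitter release, were also higher at E14. Their median log2 fold change was 0.57, with both E14 libraries above for 20 of 24 members and below for 0. Of the 24, 5 rose over all libraries and 13 without P0, and 0 fell in either fit. The lists of pan-neuronal and presynaptic genes share Snap25 and Syt1. Rab3a, the synaptic vesicle GTPase, measured 205 and 241 CPM at E12.5 and 362 and 376 CPM at E14 (log2 fold change 0.73 ± 0.11 SE, adjusted p = 0.0382). Its relative Rab3c measured 13.5 and 12.9 CPM at E12.5 and 23.3 and 25.7 CPM at E14 (0.89 ± 0.11, adjusted p = 0.0259). Cplx1, a complexin that clamps and triggers vesicle fusion, had the largest rise of the list, from 6.88 and 6.62 CPM to 13.5 and 14.4 CPM (1.05 ± 0.15, adjusted p = 0.0389). These genes therefore spanned low to high levels, and in none did the stages overlap. Vamp2, the vesicle SNARE, measured 69.5 and 65.8 CPM at E12.5 and 101.7 and 97.5 CPM at E14, with a log2 fold change of 0.56 ± 0.09. Snap25, a SNARE of the presynaptic membrane, measured 34.9 and 33.6 CPM at E12.5 and 57.1 and 52.3 CPM at E14 and missed the call over all libraries (adjusted p = 0.0520). Of the 14 neuropeptide genes tested, 5 lay above and 1 below, with a median of 0.08 whose sign changed between settings. Vip counts among the 14 although it held 0 counts in each of the 4 libraries. Without P0 Pcsk1n, which encodes a precursor of neuropeptides, rose as well, from 6.38 and 8.60 CPM to 13.7 and 13.4 CPM. Of that list Cck, which encodes cholecystokinin, rose from 2.92 and 3.74 CPM to 11.8 and 12.7 CPM, a 3.63-fold change (1.86 ± 0.19, adjusted p = 0.0164). Scg5, which encodes a secretory granule chaperone, measured 47.1 and 49.3 CPM at E12.5 and 52.5 and 56.3 CPM at E14. Sst, which encodes somatostatin, measured 14.8 and 15.9 CPM at E12.5 and 13.4 and 17.1 CPM at E14, and the stages overlapped.

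**Figure D3:**
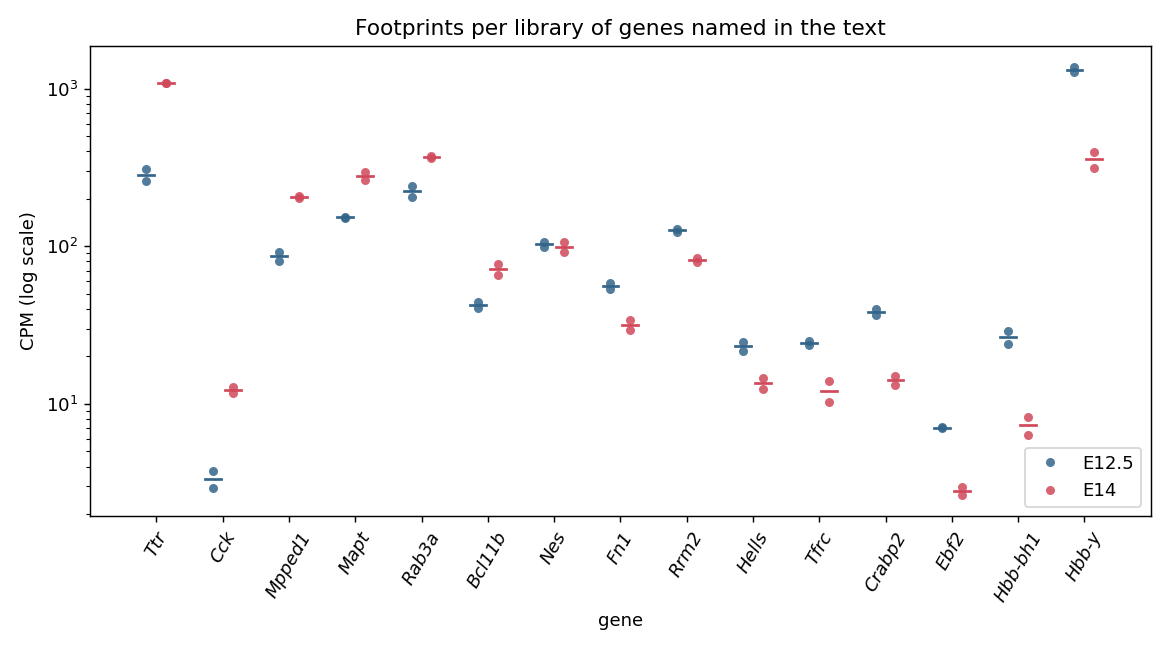
CPM on a log scale (y axis) of 15 genes named in the text (x axis) in each library, with E12.5 in blue, E14 in red, points for the 2 libraries of a stage and bars for their mean. The stages do not overlap except for Nes, whose 4 libraries lie between 92.5 and 106 CPM.

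Several of the largest rises were genes used in neurons, and each of the genes named next stood higher again at E15.5. Mpped1, a metallophosphoesterase gene, measured 80.6 and 91.7 CPM at E12.5 and 209 and 203 CPM at E14 (log2 fold change 1.26 ± 0.16 SE). Dync1i1, which encodes the intermediate chain of the dynein motor, measured 11.1 and 10.02 CPM at E12.5 and 28.9 and 25.2 CPM at E14 (1.36 ± 0.13). Its mean was 210 CPM at E15.5. Sla, which encodes a Src-like adaptor, measured 11.3 and 8.003 CPM at E12.5 and 28.4 and 23.3 CPM at E14 (1.44 ± 0.18), and its mean was 198 CPM at E15.5. The other genes among the 15 largest rises that belong here started below 7 CPM and all had both E14 libraries above both E12.5 libraries. They were Jakmip1, which encodes a microtubule-binding protein (1.40 ± 0.16), the zinc-finger gene Hivep2 (1.35 ± 0.14), the imprinted gene Nap1l5 (1.252 ± 0.19), Trim67 of the tripartite motif family (1.24 ± 0.16), Opcml, an adhesion molecule of the IgLON family (1.22 ± 0.16), and Phf24, which encodes a PHD finger protein (1.20 ± 0.17).

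The 16 transcription factors of early and deep-layer neurons had a median log2 fold change of 0.24, with both E14 libraries above for 11 and below for 2. None was called by limma-voom over all libraries (0 of 16, with 7 at an unadjusted p under 0.05), 0 were called by edgeR and 4 by DESeq2. Without P0, 4 rose, which were Bcl11b, Sox5, Bhlhe22 and Ldb2. Bcl11b, the Ctip2 gene of corticospinal neurons, measured 40.4 and 44.4 CPM at E12.5 and 77.0 and 65.3 CPM at E14, a log2 fold change of 0.74 ± 0.21 SE with an adjusted p of 0.136 over all libraries and 0.0144 without P0. Sox5, which controls the order of deep-layer neuron birth and migration, measured 129 and 124 CPM at E12.5 and 191 and 170 CPM at E14 (0.51 ± 0.11, adjusted p = 0.0733). Bcl11a measured 140 and 151 CPM against 175 and 181 CPM and Nfib, a nuclear factor I gene, 802 and 724 CPM against 837 and 946 CPM. In all 4 genes both E14 libraries lay above both E12.5 libraries. Fezf2, which specifies subcortical projection neurons, had a log2 fold change of 0.23 ± 0.15, and Tbr1, a factor of layer 6 neurons, one of 0.39 ± 0.16. Fezf2 and Tbr1 lay outside the rule for named genes, and neither was called with or without P0.

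Genes that later mark upper-layer neurons had a median of 0.51, with both E14 libraries above for 9 of 15 and below for 2. One rose over all libraries, and without P0 6 rose and 1 fell. Lmo4, a LIM-only transcriptional cofactor, measured 99.1 and 115 CPM at E12.5 and 155 and 159 CPM at E14, and Dab1, the adaptor of reelin signalling, 35.6 and 37.3 CPM against 47.6 and 47.2 CPM. Both were called without P0 only. Cux1, a homeobox gene of upper layers, measured 72.5 and 71.5 CPM against 63.7 and 72.7 CPM and overlapped. The gene that fell without P0 was Nectin3, a cell adhesion molecule, from 25.2 and 21.8 CPM to 11.7 and 12.9 CPM (-0.93 ± 0.16, adjusted p = 0.0153 without P0), and it was named after its values were seen.

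The earliest neurons gave mixed values. Of the 11 Cajal-Retzius genes tested, 3 lay above and 3 below, and Ebf2, a transcription factor of these cells, fell from 7.10 and 7.03 CPM to 2.65 and 2.98 CPM (log2 fold change -1.32 ± 0.15 SE, adjusted p = 0.0238). Its relative Ebf3 measured 12.1 and 15.52 CPM at E12.5 and 14.9 and 14.8 CPM at E14, and Nhlh2 33.3 and 36.3 CPM against 49.6 and 39.0 CPM. The chemokine receptor gene Cxcr4 measured 13.97 and 16.2 CPM against 12.46 and 14.5 CPM. The list's median was 0.08. The log2 fold change of Ebf2 had an adjusted p of 0.0532 by edgeR, and DESeq2 gave it none. The 15 subplate genes tested had a median of 0.09, with 6 above and 5 below. Limma-voom, edgeR and DESeq2 each called 0 over all libraries, 4 had an unadjusted p under 0.05, and 2 rose without P0, Slc8a2 and Nxph3. Nxph4 measured 14.4 and 16.3 CPM at E12.5 and 15.4 and 16.4 CPM at E14, whereas Lpar1, a lysophosphatidic acid receptor gene, measured 40.4 and 56.1 CPM against 29.3 and 34.1 CPM, and Pls3 47.9 and 46.0 CPM against 35.9 and 39.1 CPM. The sign of the median changed for the Cajal-Retzius list without E14 replicate 2 and for the subplate list without E12.5 replicate 1. Of 27 genes of cell adhesion and axon guidance, 5 lay above and 9 below, with a median of -0.08. Each of the 3 tools called 0, 6 had an unadjusted p under 0.05, and without P0 Slit2 fell. The 3 with the highest levels were lower at E14 without passing the test, with log2 fold changes of -0.42 ± 0.14 for the ephrin receptor gene Epha4, -0.15 ± 0.09 for Epha5 and -0.33 ± 0.20 for Cntnap2.

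**Figure D4:**
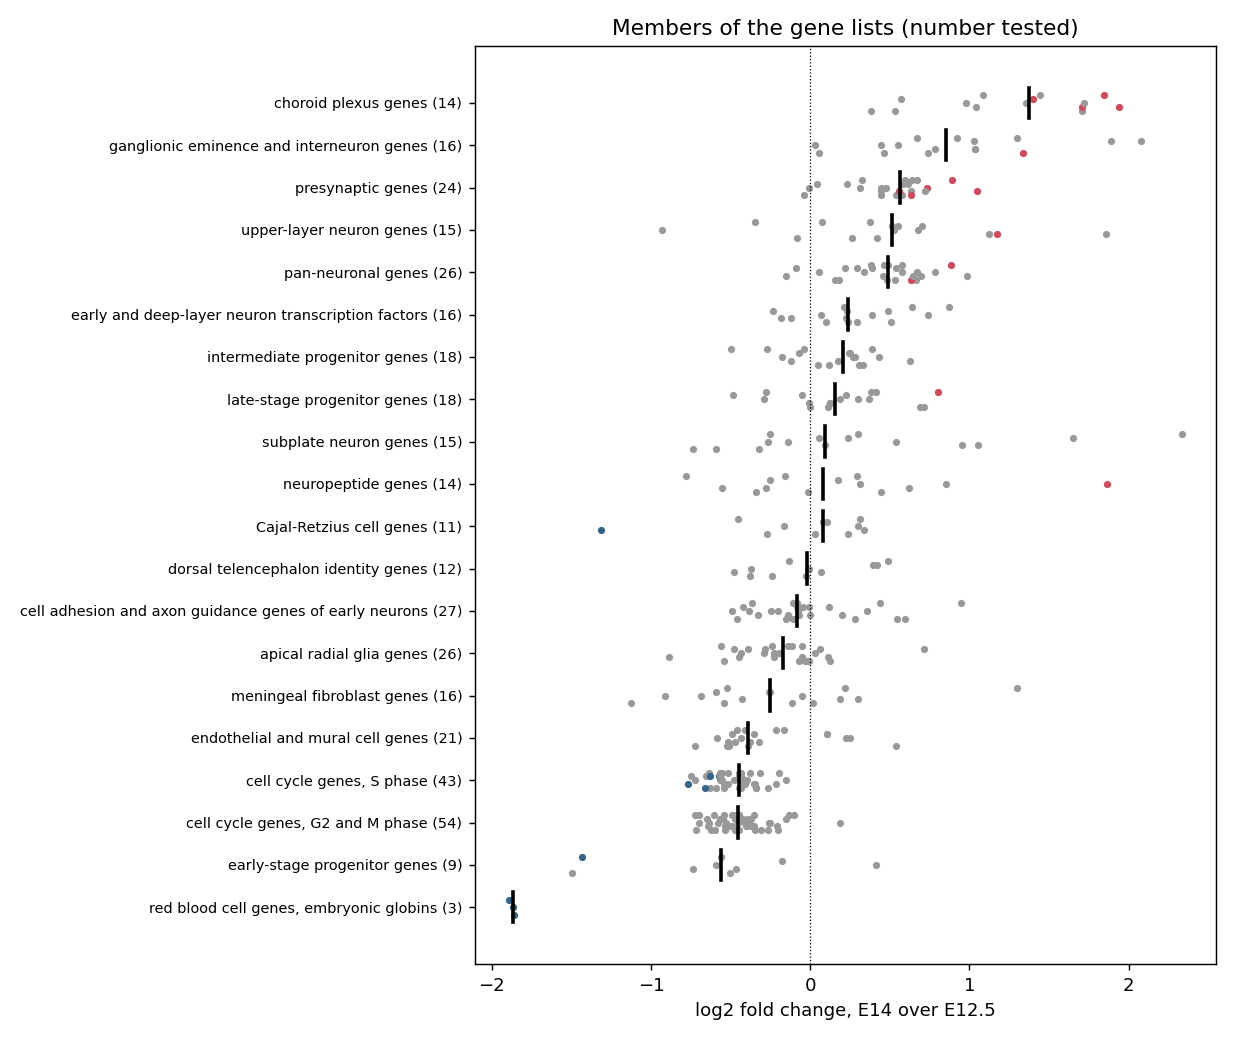
Log2 fold change at E14 over E12.5 (x axis) of the tested members of 20 gene lists (y axis, number tested in brackets), with called genes in red (higher) or blue (lower) and the median of each list as a black bar. Medians range from 1.38 for choroid plexus genes to -1.87 for embryonic globins, with the neuronal lists above 0 and both cell cycle lists at -0.45.

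Genes of apical radial glia lay below at E14 more often than above, and the most abundant of them did not differ beyond their spread. Of 26 genes, 2 lay above and 11 below with a median of -0.17. Over all libraries limma-voom and edgeR each called 0 and DESeq2 called 1, and 10 had an unadjusted p under 0.05. Without P0, 4 fell, which were Prom1, Dll1, Emx2 and Mcm3. Prom1, which encodes the apical membrane protein prominin, measured 116 and 106 CPM at E12.5 and 54.8 and 65.3 CPM at E14 (log2 fold change -0.89 ± 0.15 SE, adjusted p = 0.0503 over all libraries). Dll1, a Notch ligand gene, measured 9.52 and 10.3 CPM against 6.18 and 7.23 CPM, and Emx2, a homeobox gene of cortical patterning, 43.9 and 39.8 CPM against 27.8 and 32.3 CPM. The receptor genes Notch1, Notch2 and Notch3 were not called with or without P0, with log2 fold changes of -0.45 ± 0.14, -0.39 ± 0.13 and -0.54 ± 0.18, and both E14 libraries lay below in each. The Notch genes were named after their values were seen. Nes, which encodes the progenitor intermediate filament nestin, measured 106 and 99.3 CPM at E12.5 and 106 and 92.5 CPM at E14, and its sign changed between settings. Vim, another intermediate filament gene of progenitors, measured 687 and 762 CPM against 721 and 655 CPM, and Fabp7, the brain lipid-binding protein gene, 1039 and 899 CPM against 1042 and 1071 CPM. Ccnd2, a G1 cyclin gene, measured 1044 and 1223 CPM at E12.5 and 1065 and 1149 CPM at E14. The differences between the stages were smaller than those between replicates for Nes, Vim and Ccnd2. The 18 intermediate progenitor genes had a median of 0.21, with 8 above and 3 below. They held 0 calls with or without P0 and 0 by edgeR or DESeq2, with 4 at an unadjusted p under 0.05. Elavl2, an RNA-binding protein gene, measured 535 and 463 CPM at E12.5 and 555 and 570 CPM at E14, Neurog2, the proneural factor of cortex, 84.4 and 104 CPM against 121 and 103 CPM, and Gadd45g 64.3 and 77.6 CPM against 87.6 and 87.7 CPM. The 12 genes of dorsal telencephalic identity had a median of -0.02, with 0 called by limma-voom or edgeR, 1 by DESeq2 and 5 at an unadjusted p under 0.05, and without P0 3 rose, among them Nr2f2 and Neurod6, and Emx2 fell.

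Genes known for the early state of progenitors were mostly lower at E14 and those of the late state mostly higher. Of 15 early-stage genes 9 were tested, since Lin28a, Lin28b, Prtg, Trim71, Sall4 and Fgf15 did not pass the filter, and of these 9, 8 lay below and 1 above, with a median of -0.56. Crabp2, which encodes a retinoic acid-binding protein, fell from 39.8 and 36.8 CPM to 13.2 and 15.1 CPM (log2 fold change -1.43 ± 0.14 SE, adjusted p = 0.0164), and 7 genes fell without P0. Among the latter were the oncofetal RNA-binding protein gene Igf2bp2, at 33.0 and 36.7 CPM against 25.1 and 22.3 CPM, and the cyclin gene Ccnd1, at 31.7 and 33.1 CPM against 24.1 and 21.8 CPM. Hmga1, a chromatin protein gene, measured 767 and 669 CPM against 666 and 605 CPM and was not called. Of the 18 late-stage genes, 11 lay above and 2 below with a median of 0.16, and without P0 4 rose and 1 fell. Zbtb20, a zinc-finger repressor of later progenitors, rose from 8.42 and 8.75 CPM to 14.4 and 15.7 CPM (0.80 ± 0.12, adjusted p = 0.0423). Dbi, which encodes an acyl-CoA-binding protein, measured 1814 and 1668 CPM at E12.5 and 2159 and 2380 CPM at E14, with an adjusted p of 0.148, and the late-stage list shares Fabp7, Hopx, Slc1a3, Sox9 and Tnc with the radial glia list. Of these shared genes, Hopx, Slc1a3 and Sox9 overlapped between the stages. The late-stage list also shares Nfib with the deep-layer neuron factors. Whether its values came from progenitors or from neurons was not tested.

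Genes of the cell cycle were lower at E14 almost throughout. Of 43 S-phase genes, both E14 libraries lay below both E12.5 libraries for 42 and above for 0, with a median log2 fold change of -0.45, and of 54 genes of G2 and M phase they lay below for 49 and above for 1, also with a median of -0.45. Over all libraries 4 S-phase genes fell. Of the G2 and M list limma-voom and edgeR called 0 and DESeq2 13, and 41 had an unadjusted p under 0.05. Without P0 29 and 36 fell and 0 rose. The summed level of the S-phase list was 2832 and 2820 CPM at E12.5 and 2107 and 2063 CPM at E14, and that of the G2 and M list 7171 and 6387 CPM against 5254 and 5485 CPM. Rrm2, a subunit of ribonucleotide reductase, fell from 123 and 129 CPM to 84.3 and 78.9 CPM (log2 fold change -0.63 ± 0.10 SE, adjusted p = 0.0431). Mcm4, a subunit of the replicative helicase, fell from 33.0 and 32.9 CPM to 21.7 and 20.1 CPM (-0.66 ± 0.10, adjusted p = 0.0423). Hells, which encodes a chromatin remodeller, fell from 24.6 and 21.8 CPM to 12.46 and 14.7 CPM (-0.77 ± 0.12). Outside the lists, Pclaf, which encodes a PCNA-associated factor, fell from 249 and 225 CPM to 146 and 156 CPM (-0.65 ± 0.11), as did the replisome gene Wdhd1 (-0.65 ± 0.10), the condensin gene Ncapg (-0.74 ± 0.12) and the centromere gene Cenpl (-0.73 ± 0.12). Members with the highest levels followed the medians except for Anp32e and Jpt1. Pcna, the sliding clamp of replication, measured 291 and 283 CPM at E12.5 and 199 and 223 CPM at E14, Nasp 395 and 332 CPM against 255 and 278 CPM, and Slbp, the histone mRNA-binding protein gene, 299 and 305 CPM against 245 and 232 CPM. Hmgb2 measured 900 and 782 CPM at E12.5 and 593 and 630 CPM at E14, with an adjusted p of 0.0822. Anp32e measured 1453 and 896 CPM at E12.5 and 884 and 1037 CPM at E14, so its E12.5 replicates were further apart than the stages, and Jpt1 measured 462 and 516 CPM against 570 and 538 CPM.

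Many S-phase genes are known targets of E2F factors. Promoter sequences from RefSeq (build GRCm38.p6) were available for 31 of the 43 S-phase genes tested, as 34 promoters, and the 250 bases before each start site were searched on both strands for the E2F-type words TTTCCCGC, TTTCGCGC, TTTGCCGC and TTTGGCGC. A match was found in 9 of these 34 promoters (26.5%), in 3 of 52 promoters of the G2 and M list (5.77%), in 0 of 28 promoters of the pan-neuronal list, and in 414 of 13415 promoters of all genes tested (3.09%). Sequences are shown for the 3 S-phase genes with a match and the lowest log2 fold change among those that fell without P0. They are read 5′ to 3′ on the gene's strand up to the base before the start site, with the match in capitals, and lie on the plus strand at chr19:38930740-38930989 for Hells, chr11:98907901-98908150 for Cdc6 and chr17:56304063-56304312 for Uhrf1.
Hells: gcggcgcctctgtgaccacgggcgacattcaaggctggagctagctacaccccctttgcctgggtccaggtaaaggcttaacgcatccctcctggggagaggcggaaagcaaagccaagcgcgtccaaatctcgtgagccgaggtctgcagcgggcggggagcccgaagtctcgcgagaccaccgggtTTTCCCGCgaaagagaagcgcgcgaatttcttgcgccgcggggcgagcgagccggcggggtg
Cdc6: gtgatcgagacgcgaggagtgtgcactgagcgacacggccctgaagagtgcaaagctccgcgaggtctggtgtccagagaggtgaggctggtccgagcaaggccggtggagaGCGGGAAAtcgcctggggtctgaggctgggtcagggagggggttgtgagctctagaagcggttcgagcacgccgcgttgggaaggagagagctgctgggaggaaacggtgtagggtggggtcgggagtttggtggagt
Uhrf1: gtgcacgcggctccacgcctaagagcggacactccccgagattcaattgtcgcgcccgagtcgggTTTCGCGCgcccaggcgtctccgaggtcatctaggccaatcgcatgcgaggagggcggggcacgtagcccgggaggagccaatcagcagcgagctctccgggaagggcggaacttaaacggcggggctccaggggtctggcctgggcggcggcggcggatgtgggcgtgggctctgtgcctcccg
The match ends 54 bases before the start of Hells, 130 bases before that of Cdc6, where it lies on the opposite strand, and 177 bases before that of Uhrf1. Cdc6, a replication licensing factor, had a log2 fold change of -0.72 and Uhrf1, which maintains DNA methylation, one of -0.57. A match describes the letters only.

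Genes of the ganglionic eminences and of interneurons were higher at E14. Of 20 genes 16 were tested, since Lhx8, Gsx1 and Isl1 did not pass the filter and 1 name was not in the table, and both E14 libraries lay above for 12 and below for 0, with a median of 0.85. Those above included 2 genes near the floor that passed the filter through later stages. They were Gsx2, at 0 and 0 counts at E12.5 and 5 and 1 at E14, and Npas1, at 3 and 2 against 13 and 12. The summed level of the list was 65.2 and 76.0 CPM at E12.5 and 107.7 and 90.0 CPM at E14. Lhx6, a LIM homeobox gene of interneurons from the medial eminence, rose from 7.65 and 7.63 CPM to 19.9 and 18.8 CPM, a 2.53-fold change (log2 fold change 1.34 ± 0.13 SE, adjusted p = 0.0164). Its mean was 67.9 CPM at E15.5. Without P0, 6 members rose.

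Choroid plexus genes had the largest median of the lists, at 1.38. Of 16 genes 14 were tested, since Kl and Prlr did not pass the filter, and both E14 libraries lay above both E12.5 libraries for 13 and below for 0. Slc4a5, at 4 and 5 counts at E12.5 and 13 and 26 at E14, reached 32 footprints only at E14. The filter thus favoured its place among those above, and it counts in the median. Over all libraries 4 rose by limma-voom, 2 by edgeR and 2 by DESeq2, and without P0 8 rose. DESeq2 gave no adjusted p for Clic6 and Sostdc1. Ttr, which encodes the thyroxine carrier transthyretin, measured 309 and 258 CPM at E12.5 and 1080 and 1083 CPM at E14, a 3.83-fold rise (log2 fold change 1.94 ± 0.23 SE, adjusted p = 0.0238). Kcne2, a potassium channel subunit gene, measured 15.1 and 7.78 CPM at E12.5 and 35.1 and 34.1 CPM at E14 (1.70 ± 0.25, adjusted p = 0.0382). Sostdc1, a secreted antagonist of BMP and Wnt signals, measured 1.21 and 0.823 CPM against 3.40 and 3.61 CPM, and Clic6, a chloride channel gene, 3.58 and 2.43 CPM against 8.13 and 7.23 CPM. The 2 E12.5 libraries differed in these genes more than the E14 libraries did, and Calml4 measured 30.3 and 8.49 CPM at E12.5 and 34.5 and 31.5 CPM at E14. The summed level of the list was 391 and 307 CPM at E12.5, 1214 and 1222 CPM at E14 and 18.9 and 13.7 CPM at E15.5, and it stayed between 11.7 and 18.8 CPM at E17 and P0. Ttr made up most of this sum at E12.5 and E14, and not every member followed its course. The mean of Sostdc1, for example, was 1.02 CPM at E12.5, 3.51 CPM at E14 and 0.286 CPM at E15.5. It then stood at 0.788 CPM at E17 and 0.979 CPM at P0. Cfap126, a gene of motile cilia, had a similar course, at 4.24 and 4.11 CPM at E12.5, 10.4 and 12.8 CPM at E14 (1.47 ± 0.21, adjusted p = 0.0365) and a mean of 0.265 CPM at E15.5. Of 14 genes tested of the adjoining cortical hem and dorsal midline, 2 lay above and 2 below, with a median of -0.07, 0 called by any of the 3 tools and 3 at an unadjusted p under 0.05. Wnt7b, a Wnt ligand gene, measured 39.1 and 49.4 CPM at E12.5 and 67.8 and 60.0 CPM at E14 and rose without P0, where Wnt8b fell. At E15.5 Wnt7b still held 1996 and 1401 counts and Wnt8b 2 and 3, so Wnt7b did not share the course of Wnt8b. Zic1, a zinc-finger gene of the midline, overlapped, at 25.2 and 28.7 CPM against 26.1 and 23.3 CPM.

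**Figure D5:**
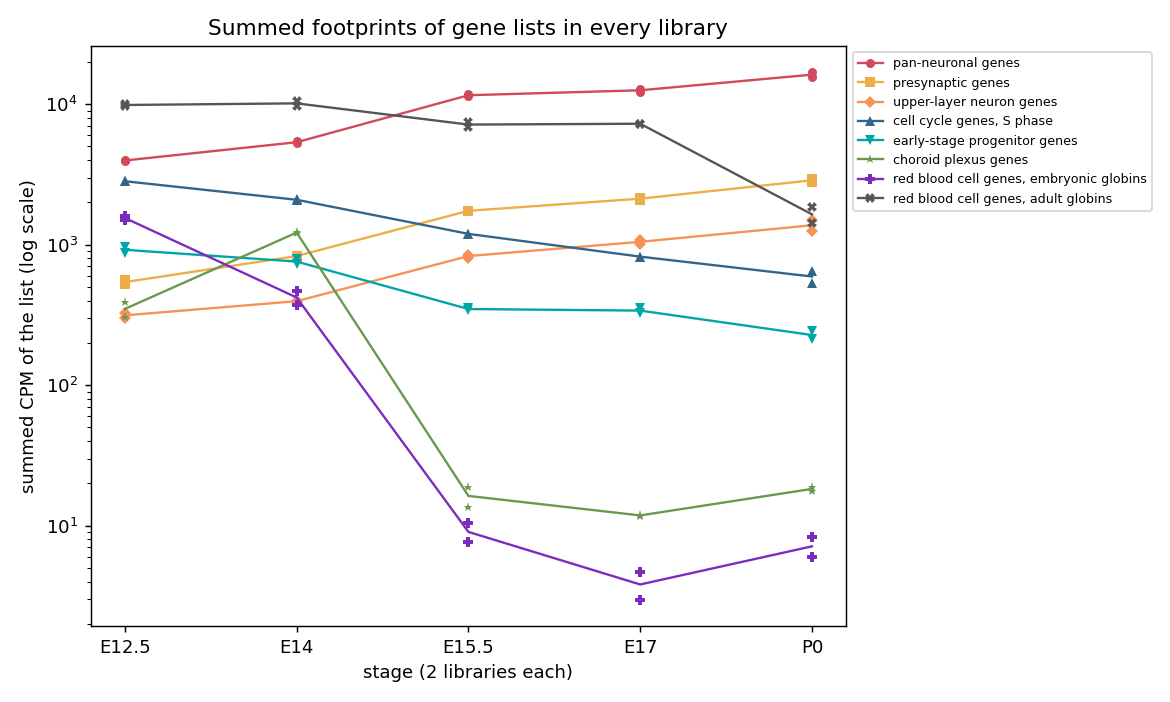
Summed CPM on a log scale (y axis) of 8 gene lists in each library of the 5 stages (x axis), with points for libraries and lines through stage means. Choroid plexus genes go from 391 and 307 CPM at E12.5 to 1214 and 1222 CPM at E14 and to 18.9 and 13.7 CPM at E15.5, while embryonic globins drop at each of the first 2 steps.

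Embryonic globins had the largest falls among called genes. These genes are expressed in primitive red cells of the yolk sac, which definitive red cells from the fetal liver replace. Hbb-y measured 1271 and 1365 CPM at E12.5 and 398 and 315 CPM at E14, so its E12.5 level was 3.72 times that at E14 (log2 fold change -1.89 ± 0.17 SE, adjusted p = 0.0164). Hba-x measured 199.9 and 206 CPM at E12.5 and 61.2 and 51.4 CPM at E14 (-1.86 ± 0.18, adjusted p = 0.0164). Hbb-bh1 measured 24.0 and 28.8 CPM against 8.31 and 6.37 CPM (-1.87 ± 0.20, adjusted p = 0.0164). The 3 log2 fold changes lay within one SE of each other although the levels differed widely. Of the adult globins, 0 of the 4 adult globin genes tested were called by limma-voom, edgeR or DESeq2 and 0 had an unadjusted p under 0.05, with a median of 0.04. Hbb-bs measured 2273 and 2647 CPM at E12.5 and 2882 and 2640 CPM at E14, and Hbb-bt 2221 and 2583 CPM against 2806 and 2587 CPM. Hba-a1 measured 2671 and 2456 CPM against 2493 and 2277 CPM. Hbb-bs and Hbb-bt are near-identical copies, as are Hba-a1 and Hba-a2, so how reads were divided within each pair is uncertain. Of 16 other red cell genes 7 were tested, with a median of -0.05. Among them Tfrc, which encodes the transferrin receptor for iron uptake, fell from 24.9 and 23.5 CPM to 10.3 and 13.9 CPM (-0.9995 ± 0.15, adjusted p = 0.0423). Tfrc is expressed by dividing cells of many kinds. Alas2, the erythroid enzyme of haem synthesis, measured 9.52 and 9.35 CPM at E12.5 and 8.70 and 7.99 CPM at E14, and Car2 8.31 and 11.1 CPM against 9.19 and 10.5 CPM.

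The sequences before the start sites are shown for an embryonic gene of each globin cluster and for an adult beta-globin gene. The embryonic genes fell and the adult gene was not called. Capitals mark the promoter word CCAAT and the word CACCC on either strand. They also mark the words bound by GATA factors, AGATAA or its variant TGATAA. Hbb-y lies on the minus strand at chr7:103853208-103853457, Hba-x on the plus strand at chr11:32276350-32276599 and Hbb-bt on the minus strand at chr7:103813924-103814173, in build GRCm38.p6 of RefSeq.
Hbb-y: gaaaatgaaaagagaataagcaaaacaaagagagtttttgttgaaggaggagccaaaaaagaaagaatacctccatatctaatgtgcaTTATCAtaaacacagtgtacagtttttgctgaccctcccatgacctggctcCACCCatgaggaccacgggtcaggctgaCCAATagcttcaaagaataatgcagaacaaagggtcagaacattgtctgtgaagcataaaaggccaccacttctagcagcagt
Hba-x: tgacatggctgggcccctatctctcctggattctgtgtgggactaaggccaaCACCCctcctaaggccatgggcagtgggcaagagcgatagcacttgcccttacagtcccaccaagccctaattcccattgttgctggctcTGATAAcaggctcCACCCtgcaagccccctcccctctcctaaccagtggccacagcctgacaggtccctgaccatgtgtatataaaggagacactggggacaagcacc
Hbb-bt: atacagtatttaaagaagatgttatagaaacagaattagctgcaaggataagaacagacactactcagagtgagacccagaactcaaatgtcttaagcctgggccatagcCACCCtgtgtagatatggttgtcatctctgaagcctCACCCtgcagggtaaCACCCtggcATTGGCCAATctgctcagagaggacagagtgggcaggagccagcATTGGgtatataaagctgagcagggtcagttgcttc
Hbb-y held 1 CCAAT, 1 CACCC and 1 GATA match in the 250 bases, Hba-x held 0, 2 and 1, and Hbb-bt held 3, 3 and 0. Of the promoters of all genes tested, 35.4% held CCAAT, 57.8% CACCC and 9.5% a GATA word, so the first 2 are common words in such windows. All 4 adult globin promoters held CCAAT and CACCC and 3 of them a GATA word. No promoter was matched for Hbb-bh1.

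Genes of meninges and vessels tended to be lower at E14, and limma-voom called 0 over all libraries. Of the meningeal list 8 had an unadjusted p under 0.05 and 1 was called by DESeq2, and of the vessel list 11 and 0. Of 16 genes of meningeal fibroblasts 3 lay above and 8 below with a median of -0.25, and without P0 5 fell. Igf2, the imprinted growth factor gene, measured 267 and 280 CPM at E12.5 and 234 and 225 CPM at E14, and Dcn, which encodes the proteoglycan decorin, 29.2 and 30.1 CPM against 18.1 and 22.8 CPM. Fbln1, a matrix glycoprotein gene, measured 25.3 and 27.8 CPM against 15.6 and 17.3 CPM (log2 fold change -0.69 ± 0.14 SE, adjusted p = 0.0679). Of 21 endothelial and mural genes tested, 2 lay above and 16 below with a median of -0.39, and without P0 4 fell and 1 rose. Sparc, a matrix protein gene, measured 266 and 250 CPM at E12.5 and 185 and 213 CPM at E14, and Slc2a1, the glucose transporter of the blood-brain barrier, 50.1 and 53.9 CPM against 38.5 and 39.9 CPM. The pericyte gene Rgs5 went the other way, at 24.6 and 26.3 CPM against 34.9 and 39.1 CPM, and was called without P0. Fn1, which encodes the matrix protein fibronectin, was the gene of this kind called over all libraries and fell from 53.4 and 58.6 CPM to 29.5 and 34.0 CPM (-0.82 ± 0.13, adjusted p = 0.0453). The summed level of the meningeal list was 415 and 435 CPM at E12.5 and 338 and 338 CPM at E14, against 35.98 and 37.8 CPM at E15.5. Both stages thus carried more meningeal footprints than E15.5. The summed levels of choroid plexus, meningeal, vessel and ganglionic eminence markers all differed between E12.5 and E14, and their part in the results for other genes was not tested.

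Microglia, glial and other tissue markers gave 0 calls by limma-voom, edgeR or DESeq2 over all libraries. Of the microglial, glial and surface tissue lists 0, 1 and 2 genes had an unadjusted p under 0.05. Of 15 microglia genes tested 1 lay above and 1 below, with a median of 0.13, and Aif1 measured 5.45 and 6.13 CPM at E12.5 and 7.55 and 7.92 CPM at E14. Fcer1g measured 6.05 and 8.38 CPM against 9.59 and 7.58 CPM, and Pf4, a gene of border macrophages and platelets, 9.24 and 12.4 CPM against 11.6 and 13.1 CPM. The 12 genes of astrocytes and oligodendrocyte lineage tested had a median of 0.05, with 2 above and 1 below. Apoe, the lipid carrier gene, measured 139 and 159 CPM at E12.5 and 189 and 193 CPM at E14 and rose without P0, while Mbp and Sparcl1 overlapped. Of 18 genes of surface ectoderm, cartilage and muscle 7 were tested, with a median of -0.18, and without P0 Krt18 rose and Col2a1, the cartilage collagen gene, fell from 10.2 and 10.7 CPM to 7.51 and 7.92 CPM. The summed level of that list was 37.5 and 30.7 CPM at E12.5 and 29.1 and 22.5 CPM at E14.

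Lrrn1 and Tmem87a completed the largest falls. Lrrn1, a leucine-rich repeat membrane protein gene, fell from 15.1 and 14.5 CPM to 6.10 and 7.19 CPM (log2 fold change -1.15 ± 0.13 SE, adjusted p = 0.0238), and Tmem87a, a Golgi membrane protein gene, from 18.2 and 17.2 CPM to 10.8 and 11.95 CPM (-0.63 ± 0.10, adjusted p = 0.0438). Eif4ebp1, which encodes an inhibitor of cap-dependent translation, measured 6.88 and 7.14 CPM at E12.5 and 5.39 and 5.32 CPM at E14. Its log2 fold change of -0.39 ± 0.15 was not called with or without P0 (adjusted p = 0.267 and 0.0894), although the libraries did not overlap.

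The genes that changed by E14 were then followed in the libraries of E15.5 and E17. These libraries were not groups of the comparison, but their spread entered the fit that called the genes. The shares below are therefore not independent of the calls and are given as description. Of the 67 genes higher at E14, 46 (68.7%) had both E17 libraries above both E15.5 libraries, and 10 had them below. Over all genes tested these shares were 34.0% and 33.8%. Of the 19 genes lower at E14, 14 (73.7%) had both E17 libraries below both E15.5 libraries and 4 above. The 4 were Fn1, Lrrn1, Tfrc and Tmem87a. Among the rises, Cck went on from a mean of 12.2 CPM at E14 to 17.7 CPM at E15.5, 41.5 CPM at E17 and 117 CPM at P0, and Mapt reached 1305, 1558 and 2350 CPM at these stages. Ttr, Kcne2 and Clic6 were among the 10 genes that went the other way, with Ttr at a mean of 11.2 CPM at E15.5 and 4.76 CPM at E17. Tiam2, Hivep2 and Ndrg1 did so from E15.5 levels above those at E14.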

How the data were processed

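Footprints were compared between 2 libraries of E12.5 and 2 of E14 mouse neocortex, grouped by the labels. The deposited values are whole-number counts of footprints per gene, not scaled. Per the study's methods the authors trimmed adapters, collapsed duplicate reads, removed tRNA, rRNA and snoRNA reads with Bowtie 2 and aligned the rest to GENCODE coding transcripts and the genome with STAR (2.7.0 in the submitters' processing notes), keeping reads that match several places. DeepShape-prime and tximport are named for gene-level counts, but whether this table came from them is not stated, so genes with near-identical copies are uncertain. Of 22373 Ensembl identifiers, 22274 matched a symbol.

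A gene was kept when its footprints summed to 32 or more in any stage (R 4.3.3). Library sizes were scaled by TMM (edgeR 4.0.16), and limma-voom (limma 3.58.1) fitted a mean for each of 5 stages to the 10 libraries, whose spread was thereby estimated jointly, with two-sided tests adjusted by Benjamini-Hochberg over 13484 genes. SE values are on the log2 scale. Totals of 21378041 to 36129988 counts in the 4 libraries and 2 pools per stage limit the precision. The code was tested on simulated counts. Alternatives were other scalings and filters, edgeR quasi-likelihood, DESeq2 1.42.0, sample quality weights, other sets of libraries and each library left out. Calls by edgeR and DESeq2 with each library left out and a crossed block were added after seeing the data.

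The members and the 27 gene lists were chosen with earlier results of these data known. Lists overlap, so a gene such as Pax6, Emx2, Lhx2, Neurod6, Nfib or Zfpm2 counts in each list that holds it. A gene was named if the study followed it (such as Nes, Bcl11b and Eif4ebp1), if it was among the 15 largest rises or falls of called genes whose counts averaged 100 or more in the 4 libraries, with no overlap between stages, or if it was called or among the 3 highest levels in a list. Genes named for a count of 5 or fewer or beside a sequence were chosen after their values were seen. Some genes that the rule names are not reported here. The replicate numbers share no batch in the labels.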

Additional observations from a re-analysis of the deposited data

How the results depend on the processing

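All 86 called genes kept their sign in the 22 alternative settings, which the lack of overlap between their stages made likely in advance. Each gene was called in 7 to 16 of the settings. The count of called genes (total, higher, lower) was 143, 130 and 13 with total counts as library sizes, 86, 65 and 21 with DESeq2 size factors, 78, 59 and 19 with TMM factors computed without histone genes, 85, 73 and 12 by edgeR quasi-likelihood, 399, 297 and 102 by DESeq2, 655, 402 and 253 with sample quality weights, 27, 22 and 5 with no filter, 110, 89 and 21 with the filter at E12.5 or E14, 8, 4 and 4 with only E12.5 and E14, and 1062, 601 and 461 without both P0 libraries. With 1 library left out, the total ranged from 0 to 1059, the genes called higher at E14 from 0 to 615 and those called lower from 0 to 447, and the lone library of a stage was assumed to vary like the others.

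The replicate block gave 4, 2 and 2 calls, with 1917 genes at an unadjusted p under 0.05. Over 4559 genes, the replicate differences correlated at -0.38 between E12.5 and E14, at -0.65 to -0.11 between E12.5 and the stages after E14, and at -0.04 to 0.43 among E14 and later stages. The labels tie no number to a batch and the correlations were not all positive, so the samples were not treated as paired. The numbers were not without shared structure, since 5 of 6 correlations among the 4 later stages were above 0. A block with the E12.5 numbers crossed, chosen after seeing the data, gave 103, 81 and 22 calls.

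With total counts the median of all genes was 0.059, and the log2 fold changes of 3 genes that were not called changed sign, to 0.0061 for Nes, 0.026 for Ccnd2 and 0.043 for Sst. With 1 library left out, 15 genes that were named and not called crossed 0, with log2 fold changes from -0.75 to 0.034 for Actc1, -0.60 to 0.095 for Anp32e, -0.18 to 0.25 for Car2, -0.15 to 0.083 for Ccnd2, -0.18 to 0.013 for Cux1, -0.062 to 0.30 for Ebf3, -0.34 to 0.17 for Mbp, -0.52 to 0.070 for Mylpf, -0.15 to 0.049 for Nes, -0.031 to 0.15 for Nxph4, -0.0077 to 0.42 for Pf4, -0.25 to 0.077 for Sparcl1, -0.20 to 0.15 for Sst, -0.11 to 0.17 for Tcf7l2 and -0.15 to 0.00059 for Vim. The medians of the neuropeptide, Cajal-Retzius, subplate, dorsal telencephalon, glial and other-region lists also changed sign with 1 library left out. The cause of these dependences was not tested.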

Other observations

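Genes called outside the lists and outside the largest changes were named after their values were seen. They included Camk2b, a subunit of the calcium-dependent kinase of synapses, Nsg2, a neuronal endosome protein gene, Basp1, a growth cone protein gene, and Ank3, which organises the axon initial segment, with log2 fold changes of 0.92, 1.00, 0.77 and 0.61. Ndrg1, a stress-responsive gene, rose from 45.3 and 59.4 CPM to 109 and 116 CPM, and Cldn1, which encodes a tight junction protein, from 0.715 and 0.524 CPM to 2.12 and 2.35 CPM. Dmrta1, a transcription factor gene of dorsal telencephalic progenitors, fell from 4.73 and 6.13 CPM to 2.78 and 2.63 CPM.

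Further lists were written after the values were seen and are described without a test. Of 22 motile cilium genes 16 were tested, with a median log2 fold change of 0.65, 11 above and 1 below in both libraries, and 1 called, Cfap126. Of 22 genes of extracellular matrix and integrins, 21 lay below and 1 above, with a median of -0.52. All 8 condensin genes lay below, with a median of -0.52, and Ncapg and Ncaph fell. Of 14 chaperone genes of the endoplasmic reticulum, 11 lay below and 0 above with a median of -0.35, and of 18 genes of cholesterol synthesis 11 lay below and 2 above with a median of -0.22. Neither of the latter lists held a called gene over all libraries, and without P0 7 and 5 of their genes fell.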
